A study of Mus musculus with 18 samples.

Results

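Cadherins, protocadherins, claudins and nectins are the surface proteins by which neighboring cells hold on to and recognize each other, and they were examined here in mouse brown preadipocytes exposed to fibroblast growth factor 6 (FGF6). The members were all protein-coding genes whose symbol in the GENCODE mouse annotation begins with Cdh, Pcdh, Dchs, Fat, Cldn or Nectin followed by the family's number or letter. This rule found 135 of the 48023 genes of the count table. They comprised 5 type I and 13 type II classical cadherins, 5 other cadherins, 6 Fat and Dachsous cadherins, 12 non-clustered protocadherins, 57 clustered protocadherins (14 alpha, 22 beta and 21 gamma), 33 claudins and 4 nectins.

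Classical cadherins bind the same cadherin on the next cell through their outermost extracellular repeat, and catenins tie their tails to actin. Fat and Dachsous are giant cadherins that bind each other across the cell border and relay tissue polarity and growth signals to the Hippo pathway. Protocadherins are the largest cadherin branch, and the clustered ones are best known for giving neurons a surface identity from combinations of isoforms. Claudins form the strands and pores of tight junctions in epithelia and endothelia, and nectins are immunoglobulin-like adhesion molecules that start junctions through afadin. In mesenchymal cells such as fibroblasts and preadipocytes, the typical pair is N-cadherin (Cdh2) and cadherin-11 (Cdh11), whereas E-cadherin (Cdh1) marks epithelia and VE-cadherin (Cdh5) endothelium.

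The cells were a line of mouse brown preadipocytes, which the study states it immortalized with SV40 T antigen, with no other engineered allele named. They were treated with vehicle (Veh) or FGF6 for 4, 8 or 24 h. The study's description of its supplementary data gives the dose as 200 ng/ml. Each of the 6 groups held 3 libraries of total RNA, 18 in all, and Veh at the same time was the control in every comparison. All came from 1 immortalized line, and nothing in the labels says whether the 3 libraries of a group were separate cultures, so the p-values measure the spread between these libraries, which may be technical.

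Library totals ranged from 24327816 to 33471980 counts. Levels are CPM, the counts scaled to a common total per library after that total was scaled by edgeR's TMM factors, and 3 counts, taken as the floor, equaled 0.0905 to 0.126 CPM. The preadipocyte and stromal marker list (Pdgfra, Pdgfrb, Ly6a, Cd34, Dlk1, Ebf2, Col1a1 and Col3a1) summed to 3900 to 4090 CPM in Veh and 2420 to 2560 CPM in FGF6 libraries at 4 h. At 8 h the sums were 5420 to 5700 and 2870 to 3060 CPM, and at 24 h 5960 to 6390 and 1400 to 1470 CPM. Of its 7 tested genes, 6 were lower and 1 (Cd34) was higher at 24 h, beside 37.9% and 35.9% of all genes tested. Dlk1 had no count in any library. Other lists also moved at 24 h, with sums of 5.55 to 6.13 CPM (Veh) and 0.0367 to 0.321 CPM (FGF6) for mature adipocyte, 6.39 to 7.92 and 3.32 to 3.97 CPM for macrophage, 6.42 to 8.27 and 10.3 to 11.7 CPM for mesothelial, and 2.52 to 2.61 and 4.89 to 5.22 CPM for neural or Schwann markers. In bulk RNA, fewer cells of a type and less RNA per cell cannot be told apart, and the part of these marker shifts in the values below was not tested.

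Of the 135 members, 26 had no count in any library, 27 never exceeded 3 counts, and 21 were counted but stayed under the filter on low counts. The other 61 were tested by edgeR's quasi-likelihood test, with p-values adjusted over all 15071 genes that passed the filter. Among these 61, 20 had a mean under the filter's cutoff of 0.346 CPM in at least 1 group, so they may have passed only through the groups in which they were high. Cdh5, Cdh6 and Fat2 were under it in every Veh library. Cdh3, Dchs2, Pcdhb4, Pcdhb9, Cldn1 and Cldn19 were under it in every FGF6 library. Each of these entered the test through the treatment in which it was high, which limits its adjusted p. The untested members included all 14 alpha protocadherins, 27 of the 33 claudins and E-cadherin itself, which had at most 10 counts in any library.

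At an adjusted p under 0.05, 11 of the 61 tested members were higher with FGF6 at 4 h and 21 were lower, against 28.6% and 34.2% of all genes tested. At 8 h, 12 were higher and 26 lower, against 32.4% and 38.4% of all genes. At 24 h, 12 were higher and 40 lower, against 35.9% and 37.9% of all genes. The share of members higher, 19.7% at 24 h, thus lay below that of all genes, and the share lower, 65.6%, above it. Much of this came from the clustered protocadherins. At 24 h, 13 of 13 tested beta genes and 13 of 19 tested gamma genes were lower and 0 were higher. All 12 higher members at 24 h belonged to the other families. With a change of at least 2-fold required as well, 4 members were higher and 5 lower at 4 h (all genes 4.96% and 6.38%), 6 and 7 at 8 h (7.39% and 10.9%), and 6 and 19 at 24 h (7.44% and 15.3%). The median log2 fold change of the tested members was -0.22 at 4 h, -0.23 at 8 h and -0.67 at 24 h, beside -0.05, -0.05 and -0.02 for all genes. Without the 20 members of low level, 7 of 41 were higher and 29 lower at 24 h, with a median of -0.56.

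The family contained both directions throughout. Higher at all 3 times were 7 members, Cdh5, Cdh6, Pcdh7, Pcdh19, Nectin1, Nectin3 and Cldn12, against 20.4% of all genes. Lower at all 3 times were 19, among them Cdh11, Cdh3, Fat1, Fat4, Dchs2, Cldn15, Nectin2 and 7 beta protocadherins, against 23.0% of all genes. A further 15 members were called at 24 h and at neither earlier time, against 8.97% of all genes, and 5 were called in opposite directions at 4 and 24 h with a called difference between those effects, against 6.73% of all genes. The FGF6 effect at 24 h differed from that at 4 h, by the interaction term of the same fit, for 5 members in the positive and 22 in the negative direction, against 28.3% and 25.2% of all genes.

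**Figure D1:**
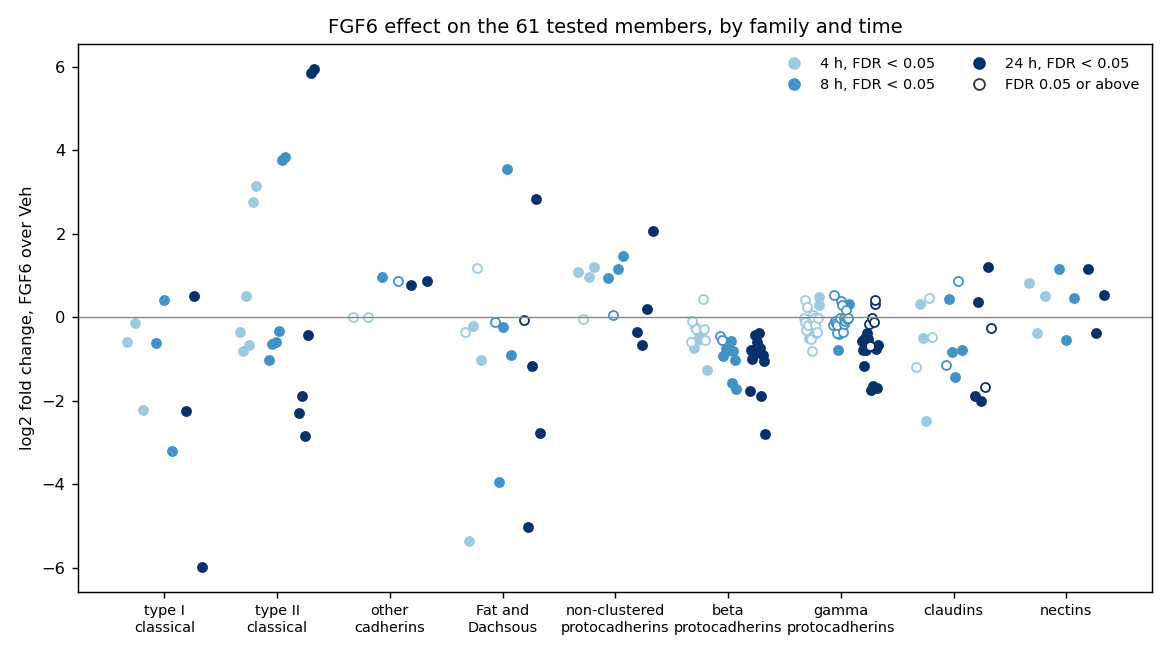
Log2 fold change of FGF6 over Veh (vertical axis) for the 61 tested members, grouped by family along the horizontal axis, with one point per gene and time (light blue 4 h, mid blue 8 h, dark blue 24 h; open points did not pass an adjusted p of 0.05). The beta protocadherins lie below 0 at 24 h in all 13 genes, and the highest and the lowest value, both at 24 h, are those of the classical cadherins Cdh6 and Cdh3; fitted values of genes near 0 counts depend on the fit's prior count.

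The sequence before the transcription start is shown for 4 members. Cdh6 and Pcdh19 were higher at all 3 times, Pcdh19 only slightly at 24 h, and Dchs2 and Fat4 were lower at all 3 times. They were taken since the pairs moved in opposite directions in the same cells and their windows hold no transcribed base of the gene model. The RefSeq start of each lies at or upstream of its GENCODE gene model, and the 250 bases before it are given 5′ to 3′ on the gene's own strand from GRCm38.p6, credited to RefSeq. RefSeq promoters were matched by symbol for 20 of the 61 tested members. Capitals mark GC boxes (GGGCGG on either strand).
Cdh6 (chr15:13173676-13173925, - strand): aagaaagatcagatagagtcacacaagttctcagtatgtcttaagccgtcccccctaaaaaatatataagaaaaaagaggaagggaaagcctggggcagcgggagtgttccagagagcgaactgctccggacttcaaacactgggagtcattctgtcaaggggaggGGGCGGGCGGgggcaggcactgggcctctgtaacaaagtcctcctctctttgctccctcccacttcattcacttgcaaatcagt
Pcdh19 (chrX:133688994-133689243, - strand): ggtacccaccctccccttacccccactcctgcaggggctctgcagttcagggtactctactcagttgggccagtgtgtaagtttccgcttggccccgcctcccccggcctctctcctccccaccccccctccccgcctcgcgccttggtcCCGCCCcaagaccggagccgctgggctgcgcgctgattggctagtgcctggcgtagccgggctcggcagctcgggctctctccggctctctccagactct
Dchs2 (chr3:83127277-83127526, + strand): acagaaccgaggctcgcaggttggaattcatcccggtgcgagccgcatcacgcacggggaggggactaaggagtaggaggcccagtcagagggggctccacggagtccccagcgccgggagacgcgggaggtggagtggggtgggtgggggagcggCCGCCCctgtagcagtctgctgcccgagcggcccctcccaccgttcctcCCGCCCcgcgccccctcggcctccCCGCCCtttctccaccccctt
Fat4 (chr3:38886690-38886939, + strand): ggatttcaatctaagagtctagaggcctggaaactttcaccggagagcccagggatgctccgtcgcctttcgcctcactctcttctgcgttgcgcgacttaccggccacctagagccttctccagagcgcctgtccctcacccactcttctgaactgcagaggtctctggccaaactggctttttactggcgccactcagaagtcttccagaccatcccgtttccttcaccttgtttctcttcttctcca
The GC box occurred at 2 overlapping positions for Cdh6, once for Pcdh19, at 3 positions for Dchs2 and nowhere for Fat4, while 32.7% of all 32851 RefSeq promoter windows of the same length held at least 1. The AP-1 motif TGANTCA, held by 6.75% of all windows, the ETS motif CCGGAAG, held by 6.91%, and the E-box CAGGTG, held by 17.2%, had no match on either strand in the 4 windows. Of the 23 RefSeq windows of the 20 matched members, 16 held the GC box, 4 the ETS motif, 2 the E-box and 1 the AP-1 motif, so the 4 windows shown do not stand for all of them. GC content was 51.2% for Cdh6, 54.8% for Fat4, 69.2% for Pcdh19 and 72.0% for Dchs2, so it did not separate the pair that rose from the pair that fell.

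N-cadherin and Cdh11, the pair typical of mesenchymal cells, moved apart. N-cadherin (Cdh2), the general mesenchymal and neural type I cadherin, rose with FGF6 by 8 h, while Cdh11, the type II cadherin of mesenchymal and bone-forming cells, fell at every time and most at 24 h. Cdh11 (chromosome 8, 102632095 to 102785642, - strand, GRCm38) stood at 149, 157 and 165 CPM in the 3 Veh libraries at 24 h and at 34, 30.8 and 31.3 CPM in the 3 FGF6 libraries. At 4 h the values were 112, 120.1 and 127 CPM with Veh and 90.2, 95.9 and 94.4 CPM with FGF6. At 8 h they were 164, 181 and 179 CPM with Veh and 87, 81.7 and 87.6 CPM with FGF6. The groups did not overlap at any time, and the gap widened with each time point. The log2 fold change was -0.36 ± 0.05 (SE, adjusted p = 6.43e-07) at 4 h, -1.03 ± 0.05 (SE, adjusted p = 8.52e-16) at 8 h and -2.30 ± 0.05 (SE, adjusted p = 2.72e-22) at 24 h, the last a 4.91-fold decrease. The change of the effect from 4 to 24 h was -1.94 ± 0.07 (SE, adjusted p = 3.17e-17) by the interaction test.

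Cdh2 stood at 37.9, 36 and 35.8 CPM with Veh and 51.5, 51.7 and 53.2 CPM with FGF6 at 24 h. At 8 h it stood at 31.7, 32.8 and 31.3 CPM with Veh and 43.5, 42.3 and 41.2 CPM with FGF6. FGF6 libraries were higher without overlap then, and the log2 fold changes were 0.41 ± 0.05 (SE, adjusted p = 5.32e-08) and 0.51 ± 0.05 (SE, adjusted p = 5.16e-10). At 4 h the libraries overlapped, with 28.3, 25.4 and 26.8 CPM for Veh and 26.2, 23.5 and 23.5 CPM for FGF6. The log2 fold change there was -0.14 ± 0.05 (SE, adjusted p = 0.0258), and that call was lost without any one of 9 libraries (2 of FGF6 and 1 of Veh at 4 h, replicate 3 of FGF6 at 8 h, and 2 of FGF6 and 3 of Veh at 24 h; adjusted p from 0.0656 to 0.236). It was also lost with DESeq2, with no filter on low counts, when every library had to hold at least 10 counts, and in a fit of the 6 libraries of that time.

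Per kilobase of exon, Cdh2 was at 0.257 ± 0.0208 times the level of Cdh11 with Veh at 24 h and at 1.80 ± 0.113 times with FGF6 (mean ± SD, n = 3 libraries). The ratio was 0.248 ± 0.0274 and 0.289 ± 0.0280 at 4 h, and 0.203 ± 0.0102 and 0.547 ± 0.0266 at 8 h. At 24 h each FGF6 library thus held more Cdh2 than Cdh11 per kilobase (ratios 1.67, 1.86 and 1.88) and each Veh library less. The ratio itself was not tested (an exact permutation test of 3 against 3 libraries cannot give a p below 0.1).

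**Figure D2:**
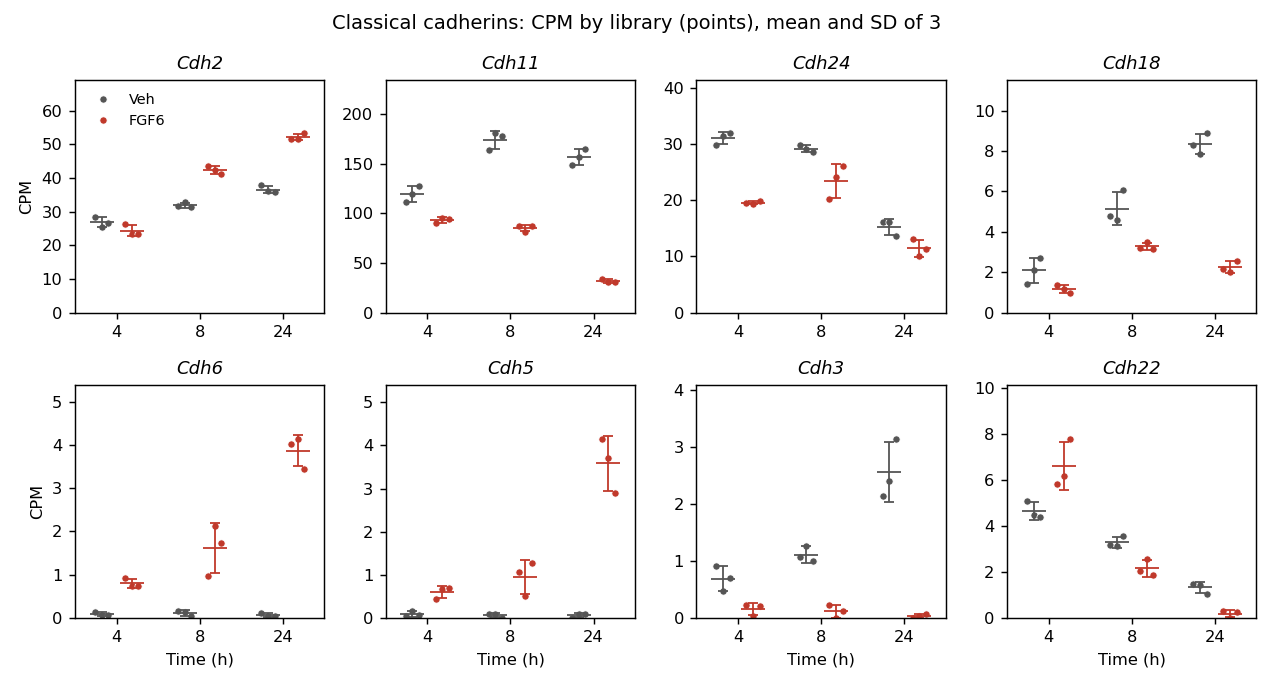
CPM (vertical axis, linear from 0) of 8 classical cadherins against time in hours, gray points for the 3 Veh and red points for the 3 FGF6 libraries, with horizontal bars at the mean and error bars for the SD. Cdh11 falls to 30.8 to 34 CPM with FGF6 at 24 h while Cdh2 reaches 51.5 to 53.2 CPM; Cdh6 and Cdh5 rise from near 0, and Cdh3 falls to near 0.

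A pair of type II cadherins that the Veh cells barely expressed appeared with FGF6. Cdh6, first described as kidney cadherin, gave 4, 2 and 2 counts in the Veh libraries and 25, 23 and 18 counts in the FGF6 libraries at 4 h. At 8 h the counts were 5, 4 and 1 with Veh and 30, 63 and 42 with FGF6. At 24 h they were 3, 1 and 1 with Veh and 110, 116 and 94 with FGF6. No Veh library had more than 5 counts, and every FGF6 library lay above all Veh libraries. Since the Veh groups were near 0, the change is given as the ratio of summed counts per library total, 9.26-fold (95% exact counting interval 4.43 to 22.3) at 4 h, 14.7-fold (95% exact counting interval 7.75 to 31.4) at 8 h and 66.2-fold (95% exact counting interval 28.1 to 205) at 24 h, where the intervals cover counting error only. The adjusted p of edgeR's quasi-likelihood test was 2.39e-06, 4.31e-09 and 8.62e-13 at 4, 8 and 24 h, but Cdh6 passed the filter only through FGF6 libraries. Its level at 24 h, 3.87 ± 0.368 CPM (mean ± SD, n = 3), remained low beside Cdh2.

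Cdh5, the cadherin of endothelial adherens junctions (chromosome 8, 104101625 to 104144511, + strand, GRCm38), followed the same course. It gave 1, 5 and 2 counts with Veh and 12, 21 and 17 with FGF6 at 4 h. At 8 h it gave 3, 3 and 0 with Veh and 33, 15 and 31 counts with FGF6, and at 24 h 0, 3 and 2 with Veh and 114, 104 and 79 counts with FGF6. FGF6 libraries were again above every Veh library at each time. The ratios were 7.01-fold (95% exact counting interval 3.30 to 17.1), 14.3-fold (95% exact counting interval 6.30 to 40.2) and 61.4-fold (95% exact counting interval 26 to 191) at 4, 8 and 24 h, with adjusted p of 0.000188, 1.58e-06 and 3.07e-11. Cdh5 too passed the filter only through FGF6 libraries. The other endothelial markers stayed low. Summed without Cdh5 and Cldn5 (Pecam1, Kdr, Tek, Emcn, Vwf and Tie1), they gave 1.57 to 2.14 CPM with Veh and 1.69 to 2.08 CPM with FGF6 at 24 h. Of the 8 genes of the list, 3 were tested, and at 24 h Cdh5 alone was called, where 35.9% of all genes were higher. Kdr was also higher at 4 h (0.82) and 8 h (2.11, log2 fold changes), and the list summed to 2.17 to 3.20 CPM with Veh and 2.48 to 3.28 CPM with FGF6 at 4 h, and to 1.52 to 2.16 and 2.34 to 3.57 CPM at 8 h. Pecam1 had at most 7 counts, Emcn 3, Tie1 2 and Cldn5 2 in any library.

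P-cadherin (Cdh3), a type I cadherin of epithelia and placenta, went the other way. It gave 61, 80 and 75 counts with Veh and 0, 1 and 2 with FGF6 at 24 h, a ratio of 69.6-fold (95% exact counting interval 23.5 to 340.0) in favor of Veh. At 4 h the counts were 28, 15 and 21 with Veh and 6, 1 and 5 with FGF6, and at 8 h 34, 40 and 29 with Veh and 7, 0 and 3 with FGF6. The Veh ratio was then 4.75-fold (95% exact counting interval 2.54 to 9.68) and 9.46-fold (95% exact counting interval 4.94 to 20.3), with adjusted p of 0.000699, 3.55e-06 and 4.39e-10 at 4, 8 and 24 h. In Veh libraries alone Cdh3 rose between 4 and 24 h, with a log2 fold change of 1.88 (adjusted p = 1.5e-05). M-cadherin (Cdh15), the type I cadherin of muscle precursors, stood at 1.61, 2.74 and 2.61 CPM with Veh and 0.584, 0.357 and 0.514 CPM with FGF6 at 24 h, a log2 fold change of -2.25 ± 0.31 (SE, adjusted p = 3.34e-07). The other members of the muscle precursor list, Myf5, Myod1 and Pax7, summed to 1.39 to 2.03 CPM with Veh and 0.893 to 1.06 CPM with FGF6 at that time. Nearly all of this sum was Myod1, since Myf5 had 0 counts and Pax7 at most 1 in any library.

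The remaining 3 tested type II cadherins, Cdh18, Cdh22 and Cdh24, are known mainly from the nervous system, and each had its own time course. Cdh24 was lower with FGF6 at 4 h (29.8, 31.5 and 31.9 CPM with Veh, 19.5, 19.2 and 19.8 CPM with FGF6). Its log2 fold changes were -0.67 (adjusted p = 5.79e-08), -0.32 (adjusted p = 0.000785) and -0.42 (adjusted p = 0.00023) at 4, 8 and 24 h, without overlap between groups. Cdh18 climbed in the Veh libraries, from 1.43, 2.13 and 2.70 CPM at 4 h to 8.30, 7.87 and 8.87 CPM at 24 h, and stood at 2.15, 2.00 and 2.57 CPM with FGF6 at 24 h. The difference at 24 h was -1.89 ± 0.16 (SE, adjusted p = 9.1e-11) on the log2 scale, after -0.82 at 4 h and -0.65 at 8 h.

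Cdh22 changed direction. It stood at 5.09, 4.48 and 4.37 CPM with Veh and 5.84, 6.18 and 7.80 CPM with FGF6 at 4 h, a log2 fold change of 0.50 ± 0.17 (SE, adjusted p = 0.0113). At 24 h it stood at 1.47, 1.45 and 1.05 CPM with Veh and 0.292, 0 and 0.257 CPM with FGF6, corresponding to a log2 fold change of -2.85 ± 0.39 (SE, adjusted p = 4.22e-07). FGF6 was above Veh in every library at 4 h and below it in every library at 24 h, and the 8 h value was -0.60 ± 0.20 (SE, adjusted p = 0.0102). The 4 h call was lost without replicate 3 of FGF6 at 4 h (adjusted p = 0.0759), and the 8 h call without replicate 3 of FGF6 at 8 h (adjusted p = 0.0721). Of the other cadherins, LI-cadherin (Cdh17), an intestinal and liver cadherin, had log2 fold changes of 0.98 (adjusted p = 0.00166) at 8 h and 0.78 (adjusted p = 0.00395) at 24 h, reaching 2.33, 2.00 and 2.09 CPM. Cdh23, a component of the tip links of hair cells, had 0.87 (adjusted p = 0.0261) at 24 h with overlapping libraries, a call lost without replicate 1 of FGF6 or of Veh at 24 h (adjusted p from 0.114 to 0.154).

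Fat1, one of the highest members by total CPM and a large actin-linked cadherin, was lower at every time and most at 24 h. It stood at 475, 499 and 475 CPM with Veh and 217, 216 and 210.3 CPM with FGF6, after 623, 604 and 548 CPM with Veh and 509, 513 and 515 CPM with FGF6 at 4 h. The log2 fold change was -1.17 ± 0.04 (SE, adjusted p = 1.36e-18) at 24 h, compared with -0.21 and -0.23 at 4 and 8 h. Fat4, the receptor for Dachsous 1 in tissue polarity, fell further. Its Veh libraries rose from 11.7, 13.5 and 12.4 CPM at 4 h to 27.9, 32.3 and 32.8 CPM at 24 h. FGF6 libraries stood at 5.84, 6.18 and 6.46 CPM at 4 h. They rose to 10.78, 11.39 and 11.46 CPM at 8 h and were at 5.22, 4.36 and 4.11 CPM at 24 h. The log2 fold changes of Fat4 were -1.03 ± 0.09 (SE, adjusted p = 3.11e-10), -0.90 ± 0.08 (SE, adjusted p = 1.35e-10) and -2.76 ± 0.09 (SE, adjusted p = 1.38e-19) at 4, 8 and 24 h, a 6.78-fold decrease at 24 h.

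Dchs2, the second Dachsous ligand, was nearly lost within 4 h. It stood at 3.50, 2.53 and 3.37 CPM with Veh and 0.0740, 0.0956 and 0.0406 CPM with FGF6, which were 108, 82 and 101 counts against 2, 3 and 1. The Veh level was 43.2 times higher (95% exact counting interval 19.6 to 119) at that time. At 24 h the values were 5.22, 5.01 and 5.68 CPM with Veh and 0.182, 0.0714 and 0.220 CPM with FGF6, corresponding to a log2 fold change of -5.03 ± 0.27 (SE, adjusted p = 8.64e-15). The difference between the 24 h and 4 h effects of Dchs2 was 0.32 ± 0.62 (SE, adjusted p = 0.689). Exonic bases opposite another gene made up 8.68% of Fat4 (C230034O21Rik, 1 to 32 counts per library) and 12% of Dchs2 (Gm10710, 0 to 1 count). Dchs1, the partner of Fat4, showed overlapping libraries throughout and was not called, with log2 fold changes of -0.35 ± 0.32 (SE, adjusted p = 0.365), -0.13 ± 0.33 (SE, adjusted p = 0.749) and -0.06 ± 0.30 (SE, adjusted p = 0.87). Fat2, the paralog known from the cerebellum, gave 0, 2 and 2 counts with Veh and 14, 16 and 17 with FGF6 at 8 h, 12.8-fold (95% exact counting interval 4.68 to 48.9) in favor of FGF6 (adjusted p = 5.26e-05). It passed the filter only through FGF6 libraries. Fat3 had at most 1 count in any library.

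The other genes of the Fat and Dachsous pathway and its Hippo readouts (Fjx1, Lix1l, Yap1, Wwtr1, Ccn1, Ccn2, Ankrd1 and Amotl2) were all tested, and 5 were higher and 2 lower at 24 h, against 35.9% and 37.9% of all genes, after 5 and 3 at 4 h and 6 and 2 at 8 h. Fjx1, the kinase that tunes Fat and Dachsous binding, went from 1.54 ± 0.205 to 6.32 ± 0.774 CPM (mean ± SD, n = 3) at 8 h, a log2 fold change of 2.03 ± 0.16 (SE, adjusted p = 3e-11). Wwtr1, which encodes the Hippo effector TAZ, rose by 1.36 ± 0.03 (SE, adjusted p = 4.14e-22) and Amotl2, an angiomotin, changed by -2.80 ± 0.05 (SE, adjusted p = 4.71e-25) at 24 h. The classical readouts Ccn1 and Ccn2 rose at 4 h by 0.31 and 0.71 and at 8 h by 0.57 and 1.43 on the log2 scale. At 24 h Ccn2 was still higher (0.57, adjusted p = 5.82e-06) and Ccn1 was not called (0.08, adjusted p = 0.348). Not all genes of the list followed them. Ankrd1 was lower at 4 h (-0.26, adjusted p = 0.000899) and higher at 8 and 24 h (0.62 and 0.26). Amotl2 was already lower at 4 and 8 h (-1.15 and -1.64).

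The 4 tested non-clustered protocadherins had different time courses. Pcdh19, an X-linked delta-2 protocadherin known for its role in epilepsy, was the most abundant of them (chromosome X, 133582860 to 133688987, - strand, GRCm38). It stood at 194, 204 and 186 CPM with Veh and 366, 388 and 381 CPM with FGF6 at 4 h. At 8 h it stood at 164, 164 and 172 CPM with Veh and 362, 367 and 375 CPM with FGF6, and at 24 h at 181, 173 and 168 CPM with Veh and 199, 197 and 205 CPM with FGF6. The groups never overlapped, but the gap closed to a small one at 24 h. The log2 fold changes were 0.96 ± 0.04 (SE, adjusted p = 2.33e-17), 1.15 ± 0.04 (SE, adjusted p = 3.91e-19) and 0.20 ± 0.04 (SE, adjusted p = 3.04e-05), and the effect at 24 h minus that at 4 h was -0.76 ± 0.05 (SE, adjusted p = 5.38e-12).

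Pcdh1, a delta-1 protocadherin of airway epithelium, started like Pcdh19 and reversed. At 4 h it stood at 19.7, 17.6 and 16.6 CPM with Veh and 38.8, 38 and 38.5 CPM with FGF6, and at 24 h at 27.5, 27.6 and 24.3 CPM with Veh and 18.8, 20.4 and 22.6 CPM with FGF6. FGF6 was above Veh in all libraries at 4 h and below in all at 24 h, with log2 fold changes of 1.09 ± 0.07 (SE, adjusted p = 2.61e-13), 0.94 ± 0.07 (SE, adjusted p = 4.51e-12) and -0.36 ± 0.07 (SE, adjusted p = 4.26e-05). Pcdh7, another delta-1 protocadherin, rose further with time. It stood at 2.52, 2.68 and 2.98 CPM with Veh and 10.9, 12.1 and 11.4 CPM with FGF6 at 24 h, and the log2 fold changes were 1.20 (adjusted p = 1.76e-08), 1.46 (adjusted p = 2.38e-10) and 2.07 (adjusted p = 1.37e-13). Of its exonic bases 21.1% lie opposite an antisense gene, 4932441J04Rik, which had 1 to 10 counts per library. Pcdh18, a delta-2 protocadherin, overlapped between groups at 4 and 8 h (-0.04 and 0.04 on the log2 scale, the first called lower with library sizes alone) and was lower at 24 h, with 34.7, 35 and 33.2 CPM for Veh and 23.5, 20.3 and 21 CPM for FGF6 (-0.67 ± 0.06, SE, adjusted p = 1.89e-10 on the log2 scale).

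**Figure D3:**
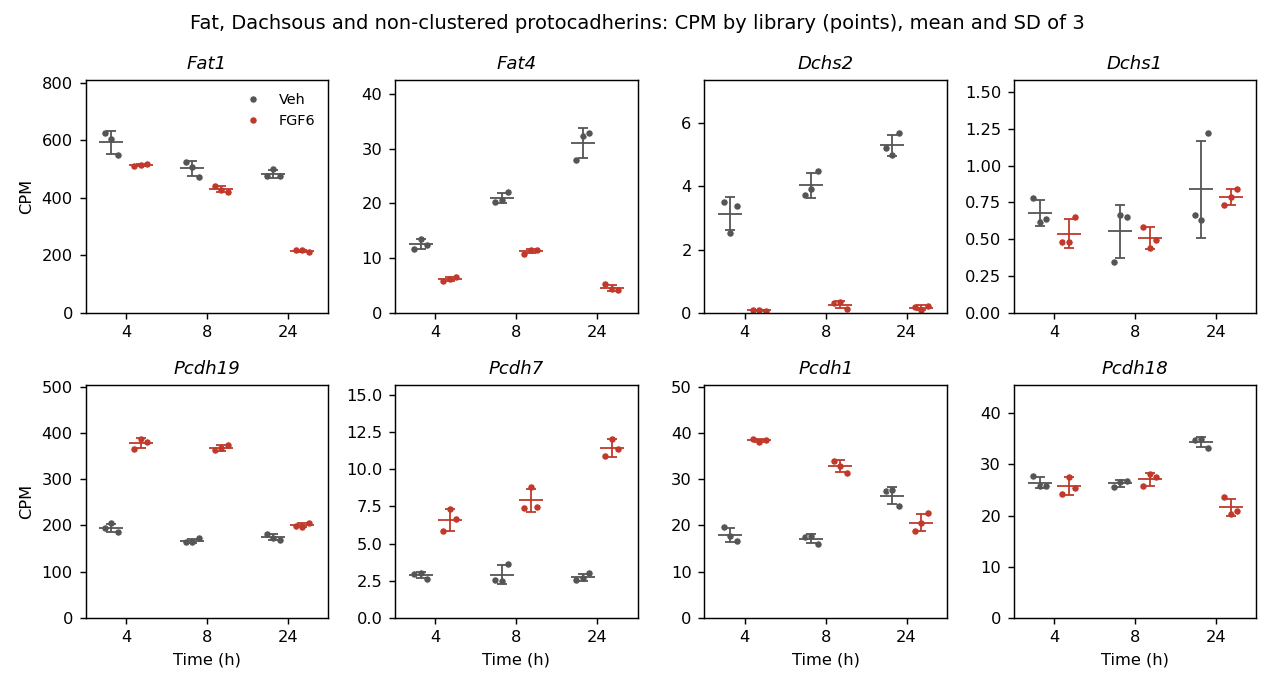
CPM (vertical axis, linear from 0) of Fat, Dachsous and non-clustered protocadherin genes against time in hours, gray points for Veh and red points for FGF6 libraries, with the mean and SD of 3. Dchs2 lies near 0 in every FGF6 library, and Pcdh7 stays high with FGF6. Fat4 rises with time in Veh libraries, whereas in FGF6 libraries it rises to 8 h and falls back by 24 h. The Pcdh19 and Pcdh1 differences seen at 4 and 8 h shrink or reverse at 24 h.

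The beta protocadherins, largely single-exon genes in one cluster on chromosome 18, were lower with FGF6 as a group. None of the 13 tested was higher at any time, and 7, 11 and 13 were lower at 4, 8 and 24 h. Of all genes, 28.6%, 32.4% and 35.9% were higher and 34.2%, 38.4% and 37.9% lower at these times. The medians of the 13 were -0.46, -0.77 and -0.86 on the log2 scale. Pcdhb4 and Pcdhb9 passed the filter only through Veh libraries, in which they were high. When every library had to hold at least 10 counts, 9 beta genes were tested, and 5, 8 and 9 were lower at 4, 8 and 24 h. The CPM summed over all 22 beta genes was 82.6, 81.4 and 83.6 with Veh and 62.1, 60.7 and 62.5 with FGF6 at 4 h. At 8 h the sums were 81.5, 89.8 and 87.8 with Veh and 53.1, 55.3 and 55.6 with FGF6. At 24 h they were 90.5, 96.0 and 94.5 with Veh and 58.5, 55.6 and 58.5 with FGF6. Each FGF6 sum lay below every Veh sum.

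The 6 tested genes at the downstream end of the cluster, Pcdhb17 to Pcdhb22, gave most of this RNA, 89.8% ± 0.567 of the beta sum with Veh and 92.5% ± 0.607 with FGF6 at 24 h (mean ± SD, n = 3). Pcdhb22, the last and most abundant, stood at 39.6, 41.6 and 38.7 CPM with Veh and 24.5, 22.6 and 24.7 CPM with FGF6 at 24 h. Its log2 fold changes were -0.46 ± 0.05 (SE, adjusted p = 2.59e-08), -0.58 ± 0.05 (SE, adjusted p = 2.39e-10) and -0.74 ± 0.05 (SE, adjusted p = 1.34e-12). Pcdhb21 had -0.47, -0.68 and -0.39, with 455 exonic bases shared with Pcdhb22, and Pcdhb16 had -0.73, -0.92 and -1.01. Pcdhb17 had -0.22, -0.57 and -0.77, and its 4 h call (adjusted p = 0.0342) was lost without any of 9 libraries (all 3 of FGF6 and replicate 3 of Veh at 4 h, and 2 of FGF6 and 3 of Veh at 24 h; adjusted p from 0.0527 to 0.173), as well as with DESeq2 and when every library had to hold at least 10 counts. The largest fitted fall at 24 h was that of a low gene, Pcdhb9, with 18, 14 and 6 counts with Veh and 2, 1 and 2 with FGF6, 7.35-fold (95% exact counting interval 2.89 to 23.9) in favor of Veh. Its 4 h call (adjusted p = 0.0184) was lost without replicate 1 or 2 of FGF6 or replicate 2 of Veh at 4 h (adjusted p from 0.0725 to 0.0953) and with DESeq2. Beta protocadherins are close paralogs, and how reads that map to several of them were counted is not stated.

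Most calls among the gamma protocadherins came at 24 h. Each gamma isoform joins its own variable first exon to the same constant exons, so at least 2116 exonic bases of each tested gene are shared with other genes of the cluster, and how reads there were assigned is not stated. Of 19 tested, 2 were higher and 2 lower at 4 h, 1 and 2 at 8 h, and 0 and 13 at 24 h. Among all genes, 28.6%, 32.4% and 35.9% were higher and 34.2%, 38.4% and 37.9% lower at these times. The medians of the 19 were -0.12, -0.08 and -0.61. The sum over the cluster was 219, 229 and 228 CPM with Veh and 137, 141 and 142 CPM with FGF6 at 24 h, whereas at 4 h it was 198, 198 and 194 CPM with Veh and 192, 198 and 195 CPM with FGF6. At 8 h the sums were 187.3, 186.7 and 185.3 CPM with Veh and 185.1, 168.9 and 179.7 CPM with FGF6. The sums overlapped at 4 h, lay apart by a narrow gap at 8 h, and were farthest apart at 24 h.

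By subtype, 8 of 10 tested gamma A genes were lower at 24 h, 2 of 6 gamma B genes and 3 of 3 gamma C genes. The share of all genes was 37.9%, and the subtype medians were -0.58, -0.06 and -0.76. Pcdhgc3, a C-type isoform that is expressed outside the nervous system too, gave 71.2% ± 0.687 of the gamma sum with Veh and 67.6% ± 1.89 with FGF6 at 24 h. It stood at 154, 164 and 164 CPM with Veh and 90.4, 94.7 and 98.8 CPM with FGF6, corresponding to a log2 fold change of -0.76 ± 0.04 (SE, adjusted p = 1.37e-15). At 4 and 8 h the values were -0.02 (adjusted p = 0.707) and -0.04 (adjusted p = 0.286). Scaled by library size only, without TMM factors, they were called lower (-0.12 and -0.11), as was the 8 h value with upper-quartile factors (-0.09). An antisense gene, BC037039, with 34 to 103 counts per library, lies opposite 28.4% of its exonic bases.

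The other C-type isoforms, Pcdhgc4 and Pcdhgc5, crossed over. Pcdhgc5 stood at 8.85, 10.2 and 9.71 CPM with Veh and 11.8, 11.2 and 12.4 CPM with FGF6 at 4 h, and at 5.88, 5.37 and 5.13 CPM with Veh and 2.92, 4.36 and 3.05 CPM with FGF6 at 24 h. Its log2 fold changes were 0.30 ± 0.10 (SE, adjusted p = 0.0106), 0.32 ± 0.10 (SE, adjusted p = 0.00744) and -0.67 ± 0.13 (SE, adjusted p = 5.34e-05), and the first was lost with library sizes alone (0.20, adjusted p = 0.0850) and without replicate 1 of Veh at 4 h (adjusted p = 0.0574), the second without replicate 1 of FGF6 at 8 h (adjusted p = 0.0592). Pcdhgc4 had 0.48 (adjusted p = 0.0104), -0.02 (adjusted p = 0.907) and -1.69 (adjusted p = 1.94e-07). Pcdhga7, the most abundant A-type gene, fell from 19.9, 20.3 and 20.8 CPM with Veh to 13.3, 14.2 and 12.4 CPM with FGF6 at 24 h (-0.61 ± 0.07, SE, adjusted p = 1.21e-08), and its 4 h call (-0.23, adjusted p = 0.00822) was lost without replicate 2 of FGF6 at 4 h (adjusted p = 0.0767). Pcdhgb5, the most abundant B-type gene, was not called at any time, with -0.18, -0.02 and -0.11 ± 0.14 (SE, adjusted p = 0.52). Of the 14 alpha genes, 8 had no count and the highest, Pcdhac2, had at most 6 counts in a library.

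**Figure D4:**
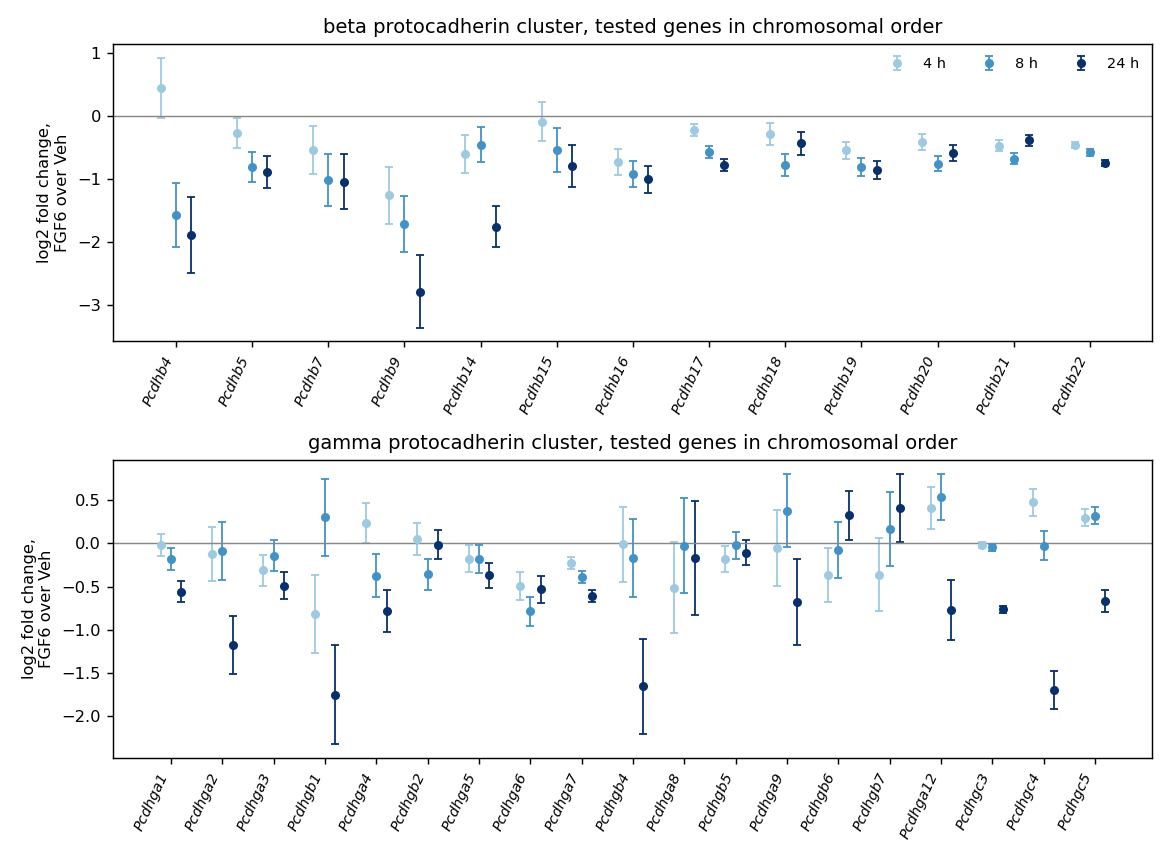
Log2 fold change of FGF6 over Veh with its SE (error bars) for the tested beta (upper) and gamma (lower) protocadherins in their order along chromosome 18, at 4 h (light blue), 8 h (mid blue) and 24 h (dark blue). The beta genes lie below 0 from 8 h on, and most gamma genes lie near 0 at 4 and 8 h and below 0 at 24 h, with Pcdhgc4 and Pcdhgc5 above 0 at 4 h.

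Genes that act on the clustered protocadherin promoters (Ctcf, Rad21, Smc1a, Smc3, Wapl, Smchd1, Dnmt3b and Setdb1) were all tested, and 6 were higher and none lower at 24 h, against the same shares of all genes (35.9% and 37.9%), after 5 and 3 at 4 h and 2 and 3 at 8 h. Ctcf, whose binding loops promoters to enhancers in these clusters, went from 124 ± 5.38 to 158 ± 0.546 CPM (mean ± SD, n = 3), a log2 fold change of 0.35 ± 0.04 (SE, adjusted p = 4.06e-09). Smchd1, a silencer of clustered protocadherins, changed by 0.47 ± 0.03 (SE, adjusted p = 3.97e-12). Cadherin proteases were lower in 6 of 7 genes tested and higher in 1 (Adam17) at 24 h, beside 37.9% and 35.9% of all genes. Adam10, which sheds N-cadherin and gamma protocadherins, had -0.46 ± 0.04 (SE, adjusted p = 1.53e-11).

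Of the 33 claudins 6 were tested, and only Cldn12 and Cldn15 had a mean above 5 CPM over the 18 libraries. Cldn15, which forms cation pores in the gut, was lower with FGF6 at every time and rose with time in Veh. It stood at 37.5, 36.1 and 39.6 CPM with Veh and 27.1, 26 and 26.9 CPM with FGF6 at 4 h. At 8 h it stood at 54.9, 53.6 and 55.8 CPM with Veh and 29.2, 30.4 and 32.7 CPM with FGF6, and at 24 h at 106, 103 and 94.7 CPM with Veh and 23.4, 23.6 and 28.3 CPM with FGF6. The groups never overlapped. Within Veh the change from 4 to 24 h was 1.43 ± 0.06 (SE, adjusted p = 1.16e-16), and the FGF6 effects were -0.50 ± 0.06 (SE, adjusted p = 1.38e-07), -0.83 ± 0.06 (SE, adjusted p = 3.88e-12) and -2.01 ± 0.06 (SE, adjusted p = 4.08e-20).

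Cldn12, a claudin without the usual scaffold-binding tail, was modestly higher at every time. It stood at 54.1, 54 and 51.2 CPM with Veh and 71.6, 66.6 and 67.6 CPM with FGF6 at 24 h, and its log2 fold changes were 0.32 (adjusted p = 3.89e-07), 0.43 (adjusted p = 2.77e-09) and 0.37 (adjusted p = 4.5e-08). Cldn23 rose at 24 h from 0.385, 0.452 and 0.168 to 0.656, 1.07 and 0.697 CPM (1.21 ± 0.37, SE, adjusted p = 0.00529 on the log2 scale), and its 8 h value was 0.87 (adjusted p = 0.107). Cldn1, the barrier claudin of skin, was lower at 24 h with 12, 9 and 14 counts with Veh and 4, 1 and 4 with FGF6 (adjusted p = 0.0081). Cldn19 was called lower at 4 h with 4, 16 and 7 against 3, 1 and 0 counts (adjusted p = 0.00349). The Cldn1 call was lost without replicate 2 of FGF6 at 24 h (adjusted p = 0.0501) and the Cldn19 call without replicate 2 of Veh at 4 h (adjusted p = 0.0512). Cldn18, a claudin of lung and stomach, stayed under the filter, with 1, 0 and 2 counts with Veh and 6, 11 and 7 with FGF6 at 8 h, 8.71-fold (95% exact counting interval 2.65 to 45.2) in favor of FGF6. Cdh1, Cdh15, Cdh17, Cdh23, Dchs1, Fat2, Fat3, Nectin4, Pcdhb4, Pcdhgc4, Pcdhac2, Cldn1, Cldn18 and Cldn19 fell outside the rule for named genes and were chosen after their values were seen.

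Among junction scaffolds and other tight junction proteins, 8 of 13 were tested, and 4 were higher and 3 lower at 24 h, where 35.9% and 37.9% of all genes were. Jam2, a junctional adhesion molecule, rose from 20.2 ± 0.544 to 128 ± 6.28 CPM (mean ± SD, n = 3), a log2 fold change of 2.66 ± 0.06 (SE, adjusted p = 1.03e-22). Cgnl1, which encodes the scaffold paracingulin, went from 95.5 ± 2.30 to 26.1 ± 1.05 CPM (-1.87 ± 0.05, SE, adjusted p = 2.3e-20). Occludin (Ocln) had at most 2 counts in any library.

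The nectins did not move as one. Nectin1 stood at 14.7, 11.9 and 12.9 CPM with Veh and 28.5, 28.1 and 31.2 CPM with FGF6 at 24 h, after 28.5, 23.1 and 23.5 CPM with Veh and 45.2, 41.6 and 45.3 CPM with FGF6 at 4 h. FGF6 libraries were higher without overlap at each time, with log2 fold changes of 0.81 ± 0.08 (SE, adjusted p = 7.14e-10), 1.16 ± 0.08 (SE, adjusted p = 2.48e-12) and 1.15 ± 0.09 (SE, adjusted p = 5.31e-12). Nectin3, a preferred binding partner of Nectin1 across the cell border, also rose, with 43.3, 41.1 and 44.6 CPM for Veh and 66.8, 60.0 and 59.4 CPM for FGF6 at 24 h. Its log2 fold changes were 0.51 (adjusted p = 1.18e-09), 0.45 (adjusted p = 1.19e-08) and 0.53 (adjusted p = 4.79e-10). Nectin2 was lower at each time, with 61.9, 64.9 and 57.4 CPM for Veh and 47.8, 39.8 and 38 CPM for FGF6 at 8 h, and log2 fold changes of -0.38 (adjusted p = 1.25e-05), -0.55 (adjusted p = 3.81e-08) and -0.38 (adjusted p = 3.21e-05). Afadin (Afdn), the scaffold that binds nectin tails, changed by 0.41 ± 0.03 (SE, adjusted p = 9.34e-11) at 24 h, and Nectin4 had at most 10 counts.

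**Figure D5:**
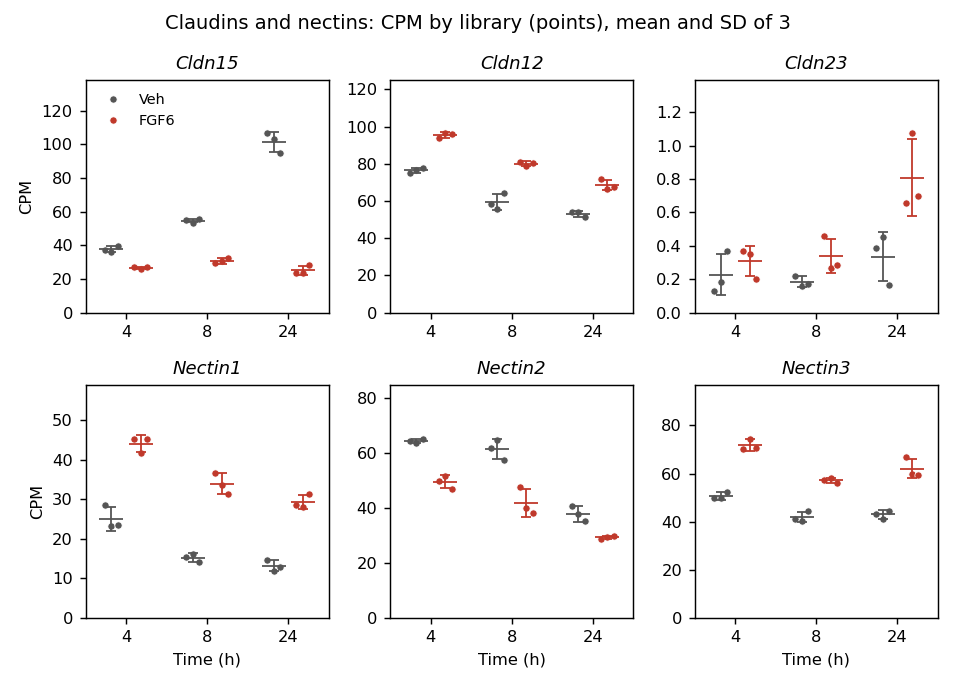
CPM (vertical axis, linear from 0) of 3 claudins and 3 nectins against time in hours, gray points for Veh and red points for FGF6 libraries, with the mean and SD of 3. Cldn15 rises to 94.7 to 106 CPM in Veh libraries at 24 h and stays between 23.4 and 32.7 CPM in all FGF6 libraries, while Nectin1 and Nectin3 lie above and Nectin2 below Veh at each time.

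Catenins and other proteins that bind cadherin tails made up a list of 11. Of these 8 were tested, and 4 were higher and 2 lower at 24 h, against 35.9% and 37.9% of all genes, after 4 and 4 at 4 h and 3 and 4 at 8 h. β-catenin (Ctnnb1) went from 871 ± 31.8 to 760.1 ± 4.21 CPM (mean ± SD, n = 3), a log2 fold change of -0.20 ± 0.03 (SE, adjusted p = 5.61e-06), and αE-catenin (Ctnna1) had 0.43 ± 0.03 (SE, adjusted p = 1.02e-12). Plakoglobin (Jup) was lower at 4 h (-0.77 ± 0.08, SE, adjusted p = 3.99e-09) and not called at 24 h (0.05, adjusted p = 0.473). Vinculin (Vcl), which reinforces the actin link under tension, had -0.93 ± 0.03 (SE, adjusted p = 2.6e-18) at 24 h.

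E-cadherin itself stayed at the limit of detection, with 2, 6 and 3 counts with Veh and 9, 7 and 7 with FGF6 at 4 h and 10, 0 and 0 with Veh and 6, 0 and 6 with FGF6 at 24 h. Its 8 known transcriptional repressors were all tested, and 5 were higher and 3 lower at 24 h, beside 35.9% and 37.9% of all genes. Slug (Snai2) went from 202 ± 5.74 to 55.1 ± 2.94 CPM (-1.87 ± 0.05, SE, adjusted p = 5.38e-22), whereas Snail (Snai1) had 1.04 ± 0.07 (SE, adjusted p = 1.95e-12) and Zeb1 0.53 ± 0.05 (SE, adjusted p = 1.33e-10). Of the 8 epithelial markers 4 were tested and 3 (Krt8, Krt18 and Grhl2) were higher at 24 h, beside 35.9% of all genes. These 3 had means under the filter's cutoff of 0.346 CPM in every Veh group. They may have passed only through FGF6 libraries, which limits this count. The 5 epithelial markers that are not members summed to 5.36 to 7.19 CPM with FGF6 and 2.65 to 3.68 CPM with Veh, and Epcam had at most 5 counts. The largest part was Krt19, which was not called (2.98 ± 0.531 CPM with Veh and 3.50 ± 0.456 CPM with FGF6, mean ± SD, n = 3). The part of the epithelial markers in the changes of Cdh3, Cdh6 and the claudins was not tested.

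By level per kilobase of exon at 24 h, the order of the members differed between the treatments. With Veh, Cldn15 (47.7 ± 2.86 CPM per kb, mean ± SD, n = 3) stood first, followed by Fat1 (30.9 ± 0.874), Pcdhgc3 (29.2 ± 1.00), Cdh11 (17.7 ± 0.887), Pcdh19 (16.6 ± 0.606) and Cldn12 (12.6 ± 0.390). Of these neighbors only Cdh11 and Pcdh19 overlapped between libraries. With FGF6, Pcdh19 (19.1 ± 0.423) stood first, followed by Pcdhgc3 (17.2 ± 0.766), Cldn12 (16.2 ± 0.625), Fat1 (13.7 ± 0.229), Cldn15 (11.8 ± 1.29) and Nectin2 (8.38 ± 0.186), with Pcdhgc3 and Cldn12 overlapping. Cdh11 was the 12th with FGF6 (3.60 ± 0.197) and Cdh2 the 7th (6.46 ± 0.117), against the 4th and the 10th with Veh. The exonic length of Pcdhgc3 includes bases shared with the other gamma genes, and how reads there were assigned is not stated. Its level per kilobase, and so its place beside its neighbors in both orders, is therefore uncertain.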

How the data were processed

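Total RNA of 18 preadipocyte libraries was sequenced. The deposited values are whole-number counts of reads per gene, which the authors made by aligning reads to GRCm38.p4 with STAR and counting GENCODE genes with featureCounts (Subread); versions, strand and multi-mapping settings are not given in the sources used here. Genes were kept by filterByExpr (cutoff 0.346 CPM; 15071 of 48023 genes). The edgeR 4.0.16 quasi-likelihood test (R 4.3.3) was fitted to all libraries with 6 group means and TMM factors (0.951 to 1.05), with Benjamini-Hochberg adjustment over all genes tested and calls at an adjusted p under 0.05. A standard error (SE) is the log2 fold change over the square root of F. CPM were computed from the counts, and levels per kilobase used exonic lengths of GENCODE M21. The scripts were tested on simulated data. Depth was 24327816 to 33471980 counts per library, and counting intervals and floors cover counting error only.

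Named genes were the tested members with a mean of at least 5 CPM, plus, at each time, up to 5 called members per direction with the largest change, groups that did not overlap and a mean not under 0.3 CPM. The members and lists were chosen with earlier results of these data known. Alternatives were limma-voom 3.58.1 (the study's method), DESeq2 1.42.0, other scalings and filters, fits of 1 time point, a replicate block, an adjusted p under 0.25 (the study's threshold) and leaving out each library.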

Additional observations from a re-analysis of the deposited data

Results flagged for a closer look

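For 5 members the FGF6 effects at 4 and 24 h were called in opposite directions and differed by the interaction test of the edgeR quasi-likelihood fit. These were 5 of the 61 tested members, where 6.73% of all genes tested met the same rule. The log2 fold change at 24 h minus that at 4 h was 0.65 ± 0.07 (SE, adjusted p = 2.53e-08) for Cdh2, the only positive difference among the 5. It was -3.36 ± 0.43 (adjusted p = 2.98e-07) for Cdh22 and -1.46 ± 0.10 (adjusted p = 2.18e-12) for Pcdh1. Among the C-type gamma protocadherins it was -2.17 ± 0.27 (adjusted p = 2.44e-07) for Pcdhgc4 and -0.96 ± 0.16 (adjusted p = 1.74e-05) for Pcdhgc5, whose exons are partly shared with the other gamma genes. The 4 h call of Cdh2, with overlapping libraries, was lost without any one of 9 libraries and in 4 alternatives, so its opposite direction at 4 h is weak. The 4 h calls of Cdh22 and Pcdhgc5 were each lost without 1 library.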

How the results depend on the processing

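The number of members higher at 24 h was 7 when every library had to hold at least 10 counts, a filter that left 40 members, against 12 in the main test. The number with a more positive effect at 24 h than at 4 h, 5 in the main test, was 3 with that filter and 9 at an adjusted p under 0.25. Leaving out 1 library at a time gave 3 to 6 for this number, with 3 without replicate 1 of Veh at 4 h. Over the 18 libraries left out in turn, the members higher and lower were 10 to 12 and 15 to 21 at 4 h, 11 to 13 and 22 to 26 at 8 h, and 10 to 13 and 34 to 40 at 24 h. Of 3034 recomputed log2 fold changes of 38 members (the 30 of the rule and 8 of those named after their values were seen), 2959 kept their call, 57 lost it, 18 gained it and none changed sign while called. With library sizes alone the log2 fold changes of all genes at 4 h shifted by a median of -0.10 from the main fit. With the replicate block, 11 members were higher and 39 lower at 24 h, and the counts at 4 h (11 and 21) and 8 h (12 and 26) were as without it. Same-numbered libraries correlated by -0.075 to 0.080 in their deviations from the group mean, and not every library correlated best with its own. With 3 libraries per group these deviations are bound to each other. They therefore cannot show whether same-numbered libraries shared a culture or batch. Without the strand setting, reads of genes overlapping on opposite strands cannot be told apart.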
